A study of Caenorhabditis elegans with 2 samples.

Results

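The 6 genes described here encode the factors that drive the elongation step of protein synthesis in Caenorhabditis elegans, together with eIF5A. They are eef-1A.1 and eef-1A.2 (eEF1A), eef-1G (the gamma subunit of eEF1), eef-2 (eEF2), and iff-1 and iff-2 (eIF5A). They were taken by name from 19973 nuclear protein-coding genes of the WBcel235 annotation, and all 6 were found there. The choice was made with earlier results of these data known, so shares set beside those of all genes are descriptions only. The data are chromatin immunoprecipitation followed by sequencing (ChIP-seq) with an antibody to AMA-1 (the largest subunit of RNA polymerase II). Chromatin came from whole L2 larvae of the wild-type N2 strain, both sexes together, of unknown age. There is 1 group of 2 biological replicates, with no second stage, genotype or treatment, so levels are described and no test is made. Because whole animals were used, more polymerase per cell and more cells with polymerase on a gene cannot be told apart.

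eEF1A brings each aminoacyl-tRNA to the ribosome, and the eEF1B complex, to which the gamma subunit belongs, recharges eEF1A with GTP. eEF2 then moves the ribosome along by 1 codon. eIF5A carries hypusine, an amino acid made from lysine only in this protein, and helps the ribosome through sequences that are slow to form peptide bonds. Growing larvae make ribosomes and translation factors in quantity, and RNA polymerase II transcribes the genes for these proteins.

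Each gene was read from 500 bp upstream of its annotated 5′ end to 500 bp past its 3′ end. Within that window the summits (the highest point of each peak) were read from 4 deposited peak lists on ce11: 1 per replicate, 1 from both replicates pooled, and the optimal list, which holds the 1861 pooled peaks kept by the irreproducible discovery rate. The signal of a peak is the value the authors deposited for it. Its scale is not given and it may differ between replicates, so genes are compared within a list, by signal or by percentile among all protein-coding genes. Optimal peaks had signals of 47.4 or more, and the highest signals were 1033.13 in replicate 1 and 476.4 in replicate 2. Read depth is unknown from these lists. Markers of muscle, pharynx, intestine, epidermis, neurons and germline were read in the same way. Of these 18, 0 had an optimal summit, against 7.60% of all protein-coding genes. A pooled summit was present in 10, against 44.2% of all genes, so the counts are no check of the tissue. All 3 intestinal markers (elt-2, ges-1, act-5) and all 3 germline markers (pgl-1, glh-1, glp-1) had none in the pooled list.

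Of the 6 genes, 5 had AMA-1 peaks in the optimal list, and iff-1 had none. Their highest optimal signals were 131.5 for eef-1A.1, 124.4 for iff-2, 109.1 for eef-1A.2, 90.7 for eef-2 and 65.4 for eef-1G. The eef-1A.1 value depends on the window: its summit is nearer to the divergent gene rfc-4, and with flanks of 250 bp the highest signal of eef-1A.1 was 29.8 and it had no optimal summit. Over all protein-coding genes, 7.60% (Wilson 95% interval 7.24 to 7.97%, counting error over genes only) had an optimal summit in the same window, and their median highest signal was 68.1. Within 500 bp of the 5′ end alone the same 5 genes had a summit, against 4.80% of all genes. Counting genes without a peak as 0, the median highest pooled signal was 99.9 over the 6 genes. It was 0 over all genes, since 11142 had no pooled summit.

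**Figure D1:**
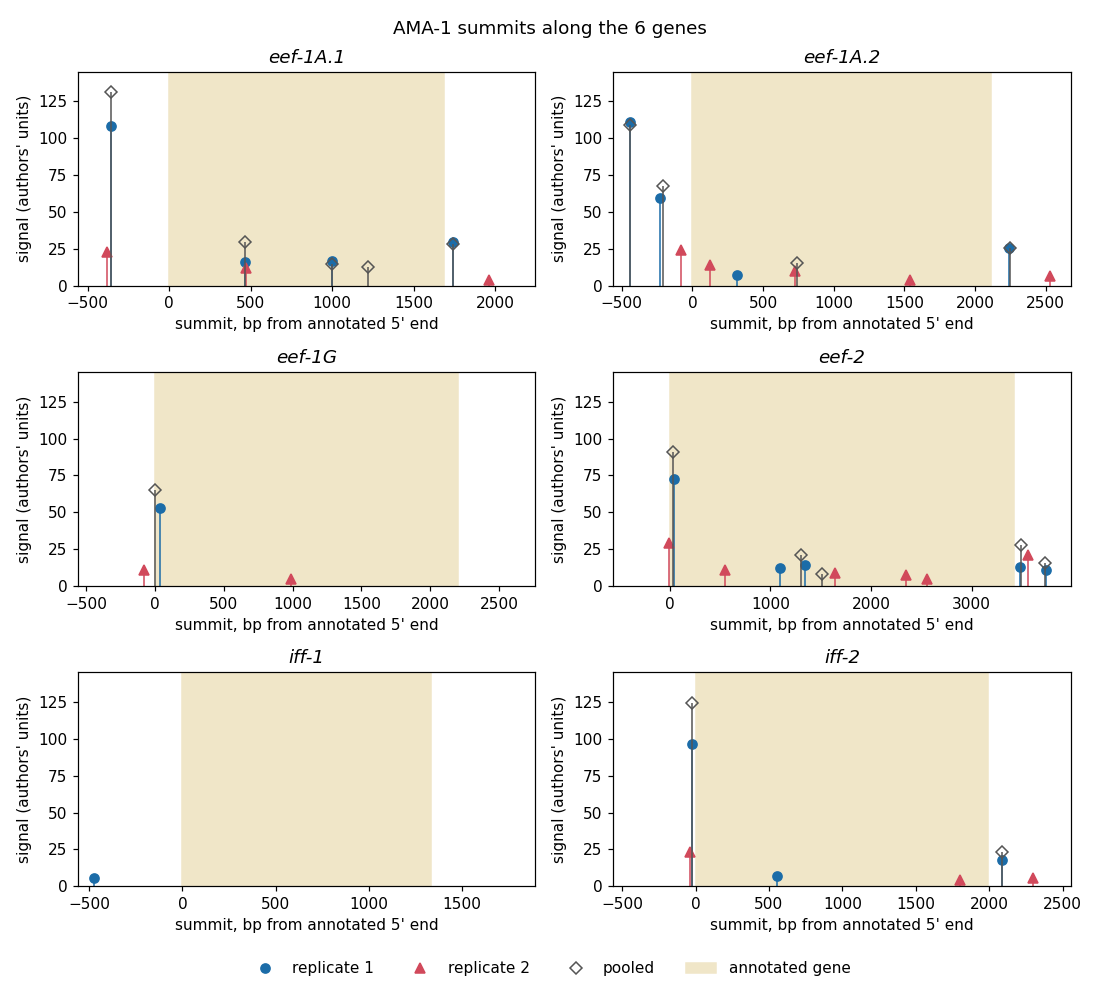
AMA-1 summits in the 6 genes, plotted as signal in the authors' units against distance in bp from the annotated 5′ end in the direction of transcription. Filled circles are replicate 1, triangles replicate 2 and open diamonds the pooled list, and shading marks the annotated gene. The highest summit of each of the 5 genes in the optimal list lies near or upstream of the 5′ end, lower ones lie inside the gene, past its 3′ end or, for eef-1A.2, also upstream (67.4 at -207 bp), and iff-1 holds a single replicate 1 summit of 5.90.

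The genes for eEF1A were occupied most clearly upstream of their annotated 5′ ends. eef-1A.1 (WBGene00001168, chromosome III, 6970026 to 6971712, minus strand) had a summit 357 bp upstream, at position 6972069, with a signal of 131.5. The replicates placed their highest summit at -357 bp (signal 108.3, rank 162 in the list) and -384 bp (22.7, rank 1345), so both were upstream and 27 bp apart. eef-1A.2 (WBGene00001169, chromosome X, 7823654 to 7825769, plus strand) had a pair of optimal summits, at -441 bp (109.1) and -207 bp (67.4).

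In replicate 1 the eef-1A.2 summits stood at -440 bp (111.2) and -232 bp (59.5). In replicate 2 the highest was at -80 bp (24.1), and the next, at 123 bp after the 5′ end, reached 14.0. Replicate 2 therefore had no summit at the place of the strongest replicate 1 summit, and the highest summits were 360 bp apart. Among the 1479 genes with an optimal summit and a summit in both replicates this distance had a median of 93 bp, with quartiles of 30 and 954 bp. At the other genes with optimal peaks it was 19 bp for iff-2, 53 bp for eef-2 and 116 bp for eef-1G.

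The eEF1A paralogs encode the same protein, while their upstream sequences differ. Their coding sequences, each of 1389 bases, were 94% identical, and the translated products of 463 residues were 100% identical. Their 500 bases upstream were 45% identical when aligned end to end with gaps. That is within the range over all 15 pairs of the 6 genes, 43.6% to 48.9%. Every stretch of 36 bases under the upstream peaks of both genes occurred once in the genome. Under the pooled peaks inside eef-1A.1 and eef-1A.2 the share was 92.8% to 96.4%, so short reads there could fit both copies. With stretches of 50 bases it was 98.1% or more under each peak of both genes.

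The sequences at these summits are shown because the strongest AMA-1 signal of both eEF1A genes lies there. Each is 101 bases centred on the optimal summit, 5′ to 3′ on the gene's strand, read from the RefSeq copy of WBcel235. Capitals mark matches on either strand to any of the motifs searched, overlaps included. The first, TATAAA, resembles the core promoter box of that name. The second, GAGAGA, is a purine repeat. The third, TTTCAG, is the usual worm splice acceptor. The last, TTTTTT, is a T run. The windows are chrIII:6972019-6972119 (minus strand), chrX:7823163-7823263 and chrX:7823397-7823497 (both plus strand).
eef-1A.1, summit at -357 bp: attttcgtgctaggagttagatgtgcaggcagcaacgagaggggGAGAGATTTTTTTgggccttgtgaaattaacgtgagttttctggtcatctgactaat
eef-1A.2, summit at -441 bp: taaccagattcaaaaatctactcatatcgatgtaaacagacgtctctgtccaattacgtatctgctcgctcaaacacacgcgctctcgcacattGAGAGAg
eef-1A.2, summit at -207 bp: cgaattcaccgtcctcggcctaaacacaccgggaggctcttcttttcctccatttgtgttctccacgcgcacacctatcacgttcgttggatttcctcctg

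The first summit lay inside the annotated microRNA gene cel-mir-5549 (6971976 to 6972085), and the third inside the noncoding gene R03G5.8 (7823385 to 7823525), which runs on the opposite strand from eef-1A.2. The stretch at the eef-1A.1 summit holds GAGAGA followed at once by a T run. The first eef-1A.2 stretch holds GAGAGA near its 3′ edge, 397 bp upstream of the gene, and the second holds no match. Letters that match are a description only, and bear on no factor.

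The annotated 5′ ends of both eEF1A genes directly follow TTTCAG, the word at which C. elegans pre-mRNAs are cut for splicing, including trans-splicing of the spliced leader. Trans-splicing replaces the first part of a transcript, so the annotated 5′ end of such a gene need not be where transcription begins. The 150 bases before each annotated 5′ end are given for these genes, with the same marking, from chrIII:6971713-6971862 (minus strand) and chrX:7823504-7823653 (plus strand).
eef-1A.1: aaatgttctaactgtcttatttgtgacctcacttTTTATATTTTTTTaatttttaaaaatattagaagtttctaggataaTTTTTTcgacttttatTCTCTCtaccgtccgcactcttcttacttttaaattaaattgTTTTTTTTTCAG
eef-1A.2: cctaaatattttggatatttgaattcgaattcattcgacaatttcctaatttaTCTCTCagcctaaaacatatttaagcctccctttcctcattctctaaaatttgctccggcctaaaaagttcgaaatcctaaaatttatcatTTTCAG

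Of the 6 genes, only these 2 start directly after TTTCAG. Over windows from 250 bases before to 50 bases after the 5′ end, TTTCAG was found in 4 of the 6 genes and in 51.7% of all 19973 promoters. TATAAA was found in 3 of 6 and 37.9%, GAGAGA in 2 of 6 and 21.8%, and the T run in 4 of 6 and 80.1%.

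eef-1G (WBGene00008920, chromosome V, 10965719 to 10967922, plus strand) had the lowest signal of the occupied genes. Its 1 optimal summit lay 3 bp after the 5′ end, at position 10965722 (65.4). Replicate 1 had its summit 37 bp after the 5′ end (52.7, rank 809) and replicate 2 at -79 bp (11.0, rank 6680), where it was outside the 1861 strongest peaks. From the strongest peaks of replicate 2 alone eef-1G was thus not called. The gene has 5 annotated transcript 5′ ends, and from the one farthest inside the gene the optimal summit was at -251 bp. Its remaining summit was in replicate 2, 990 bp inside the gene (4.46). The 150 bases before the 5′ end, chrV:10965569-10965718, lie in the 179 bp gap to the divergent gene ctf-4, and hold 1 T run on the opposite strand.
eef-1G: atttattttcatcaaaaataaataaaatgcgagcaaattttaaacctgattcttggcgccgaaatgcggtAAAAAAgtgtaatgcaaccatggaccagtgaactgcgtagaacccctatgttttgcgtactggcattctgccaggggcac

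eef-2 (WBGene00001167, chromosome I, 9163531 to 9166952, plus strand) had the most even signal between the replicates. The optimal summit lay 29 bp after the 5′ end, at position 9163560 (90.7). Replicate 1 reached 72.4 at 44 bp after the 5′ end (rank 382) and replicate 2 29.0 at -9 bp (rank 698), the highest replicate 2 signal among the 6 genes. From the other 2 annotated transcript 5′ ends the optimal summit was at -17 and -422 bp. The ratio of the replicate 1 to the replicate 2 signal was 2.50, next to a median of 2.49 over the 1479 genes with both (quartiles 1.68 and 3.88). For the other genes in the optimal list it was 4.10 (iff-2), 4.61 (eef-1A.2), 4.77 (eef-1A.1) and 4.78 (eef-1G), all above the upper quartile. Each ratio takes the highest signal in the window of each replicate, and at eef-1A.2 those summits were 360 bp apart.

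**Figure D2:**
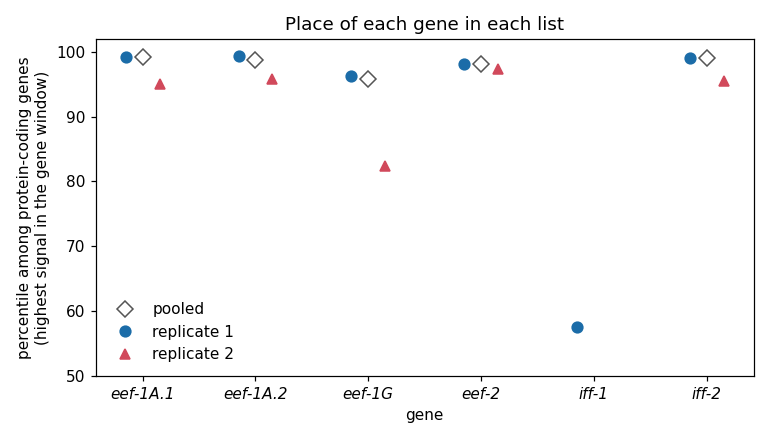
Percentile of each gene among 19973 protein-coding genes by its highest signal in the window, for the pooled list (open diamonds), replicate 1 (circles) and replicate 2 (triangles). The vertical axis starts at 50. The 5 genes in the optimal list stand at 95.9 or above in the pooled list and at 82.3 to 97.3 in replicate 2, and iff-1 has a single point at 57.6 in replicate 1. Genes without a summit count as 0, so that point is near the lowest possible, at place 8474 of the 8998 genes with a replicate 1 summit.

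Of the eIF5A genes, iff-2 had an optimal peak and iff-1 had none. iff-2 (WBGene00002065, chromosome II, 8559375 to 8561367, minus strand) had a summit 22 bp upstream of its 5′ end, at position 8561389 (124.4), with 96.8 at -22 bp in replicate 1 and 23.6 at -41 bp in replicate 2. Both replicates placed it within 19 bp. The gene has a second annotated transcript 5′ end at 8560964, and from that one the summit was at -425 bp. iff-1 (WBGene00002064, chromosome III, 9745862 to 9747193, minus strand) had no summit in the optimal, pooled or replicate 2 list. Its single replicate 1 summit had a signal of 5.90 (rank 25661 of 30000) at -474 bp and lay inside the divergent gene cdk-1.

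In C. elegans iff-1 is known for its role in the germline and iff-2 for its role in somatic tissue. Of the 18 tissue markers 10 had a pooled summit, among them all those of epidermis and neurons. The 3 germline markers, the 3 intestinal markers, myo-3 of body wall muscle and myo-2 of the pharynx had none. Among all 19973 genes 11142 had none. The part of the germline in the iff-1 result was not tested. The longest coding sequences of iff-1 and iff-2 (585 and 483 bases) were 65.4% identical and their products 69.2%. Every stretch of 36 bases in both windows occurred once in the genome. A replicate 1 summit of any signal was present in 45.1% of all genes, a replicate 2 summit in 44.0% and a pooled summit in 44.2%. The 150 bases before each 5′ end are shown side by side as the promoters with and without a peak, from chrII:8561368-8561517 and chrIII:9747194-9747343 (both minus strand).
iff-2: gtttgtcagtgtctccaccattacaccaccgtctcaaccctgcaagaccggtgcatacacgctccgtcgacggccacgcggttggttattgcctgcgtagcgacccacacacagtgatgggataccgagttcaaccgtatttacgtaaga
iff-1: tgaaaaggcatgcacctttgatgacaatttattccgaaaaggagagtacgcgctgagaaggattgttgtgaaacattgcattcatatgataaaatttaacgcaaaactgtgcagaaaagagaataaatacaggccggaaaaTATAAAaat

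The iff-2 stretch had 54.7% G and C and no match to the motifs. The iff-1 stretch had 34.7% G and C and 1 TATAAA, 9 bp before the 5′ end. The corresponding stretches had 24% G and C for eef-1A.1, 31.3% for eef-1A.2 and 40.7% for eef-1G, and eef-2 was not included. The optimal summits of the eEF1A genes lie outside these stretches. A relation between G and C content and signal was not tested.

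The 2 replicates ranked the genes differently. In replicate 1 the highest signals were at eef-1A.2 (percentile 99.3) and eef-1A.1 (99.2), followed by iff-2 (99.1), eef-2 (98.2) and eef-1G (96.3). In replicate 2 eef-2 came first (97.3), then eef-1A.2 (95.8), iff-2 (95.5), eef-1A.1 (95.1) and eef-1G (82.3). eef-1G was the lowest of the occupied genes in both. eef-1A.2 stood above eef-1A.1 and iff-2 in both replicates, and eef-1A.1 and iff-2 changed places. Each of these 3 genes differed more between the replicates than from the other two within a replicate. Among the 1861 strongest peaks of each replicate alone, replicate 1 had summits in 5 of the 6 genes (7.90% of all genes) and replicate 2 in 4 (6.44%), losing eef-1G.

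**Figure D3:**
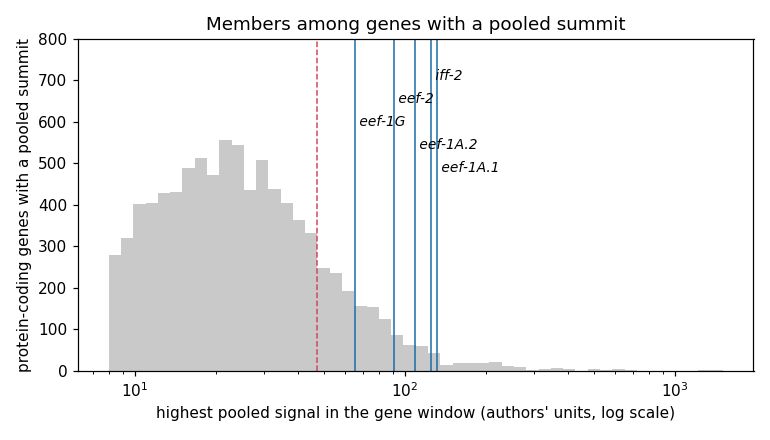
Histogram of the highest pooled signal in the window (authors' units, log scale) for the 8831 protein-coding genes with a pooled summit. Blue lines mark the 5 genes with values from 65.4 to 131.5, the dashed line is the lowest signal of the optimal list (47.4), and iff-1 has no value.

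Smaller summits lay past the 3′ ends of 4 of the 6 genes. A pooled summit of any signal lay there at 23.7% of all genes. In the pooled list the highest summits of the 4 genes were 57 bp past the end of eef-1A.1 (28.0), 68 bp past eef-2 (28.1), 97 bp past iff-2 (23.3) and 134 bp past eef-1A.2 (25.3). eef-1G and iff-1 had none in any list. Among the 959 genes with an optimal summit at the 5′ end, 65.9% had a pooled summit past the 3′ end, so 4 of the 5 occupied genes is near that share. Relative to the summit at the 5′ end these were 18.7% (iff-2), 21.3% (eef-1A.1), 23.2% (eef-1A.2) and 31.0% (eef-2). The median over the 630 genes with separate summits at both ends was 44.6%.

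The share of the 5′ signal found past the 3′ end differed most between the replicates at eef-2. There replicate 2 had a summit of 21.2 at 138 bp past the end (rank 1593, among its 1861 strongest), which was 73.1% of its 5′ signal. In replicate 1 the highest was 12.9 at 62 bp, or 17.8%. In replicates 1 and 2 the shares were 18.3% and 23.7% at iff-2, 23.1% and 27.1% at eef-1A.2, and 27.4% and 16.6% at eef-1A.1. At these genes the replicate 2 summit lay farther past the end, so the shares do not describe the same summit. The summits were at 97 bp (17.7) and 308 bp (5.59) for iff-2, and at 128 bp (25.6) and 416 bp (6.54) for eef-1A.2. For eef-1A.1 they were at 57 bp (29.7) and 276 bp (3.78, rank 28337 of 30000). The pooled summit past eef-1A.1 lay inside F31E3.12, a protein-coding gene that overlaps eef-1A.1 on the other strand. That past eef-1A.2 lay inside the noncoding gene C54D2.14.

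**Figure D4:**
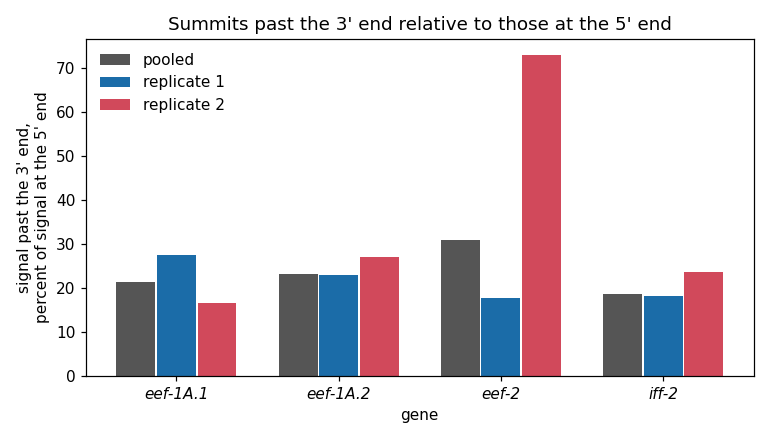
Highest signal within 500 bp past the 3′ end as a percent of the highest signal within 500 bp of the 5′ end, for the 4 genes with a summit at both. Bars are the pooled list, replicate 1 and replicate 2. The shares run from 16.6% to 31.0% except for eef-2 in replicate 2, which reached 73.1%. The replicates' summits past the 3′ end lie at different positions.

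The AMA-1 summits called inside the genes away from the 5′ end were low. Only called summits were read, so polymerase spread along a gene without a summit was not measured. Away from the 5′ end, eef-1A.1 held 3 pooled summits (29.8 at 467 bp, 14.7 at 997 bp and 12.4 at 1219 bp), eef-2 held 2 (20.8 at 1307 bp and 8.40 at 1518 bp) and eef-1A.2 held 1 (15.6 at 743 bp). eef-1G, iff-1 and iff-2 held none in the pooled list, and the single replicates had only weak ones there, such as 7.31 at 556 bp in iff-2 in replicate 1. The summit at 467 bp in eef-1A.1 was also found at 466 bp in replicate 1 (16.4) and at 471 bp in replicate 2 (11.8). None of the pooled summits listed here reached the lowest signal of the optimal list.

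Several of the peaks are shared with a divergent neighbour, and which gene such a peak belongs to cannot be told apart here. The eef-1A.1 summit lay 184 bp upstream of rfc-4, a subunit of the replication clamp loader, and was closer to it than to eef-1A.1. The eef-1G summit lay 183 bp upstream of ctf-4, and the eef-2 summit 294 bp upstream of clsp-1, a homolog of the replication checkpoint protein claspin. Counting a summit only for its nearest protein-coding gene gave eef-1A.1 no optimal summit and left 4 of the 6 genes. The optimal summits of eef-1A.2 and iff-2 were in no other protein-coding gene's window. Noncoding genes share some of these peaks too. The eef-1A.1 summit lay 16 bp from the annotated 5′ end of cel-mir-5549. The eef-1A.2 summits lay 312 and 78 bp from that of R03G5.8.

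Of 54 other translation machinery genes matched from a list of 61, 10 had an optimal summit, against 7.60% of all protein-coding genes, and the difference was not tested. For 8 of the 10 the highest summit also lay in the window of another protein-coding gene. The median highest pooled signal was 30.0 over the 54, and 13 of them had no pooled summit. Among the partners of the elongation factors, eef-1B.2 of the eEF1B complex had a summit of 62.8, 2383 bp from its 5′ end and past its 3′ end, shared with hrpu-1. eef-1B.1 of the same complex reached 43.6 in the pooled list, below the optimal list's lowest value. The eEF2 kinase gene efk-1 had 2 optimal summits, the higher of 114.1 past its 3′ end, shared with F42A10.9 and nfm-1. dhps-1 and dohh-1, whose enzymes make the hypusine of eIF5A, had no summit in any of the 4 lists.

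Mitochondrial elongation factor genes had an optimal summit in 1 of 4, tufm-1 (50.3, shared with Y71H2AM.3), and termination and recycling genes in 1 of 8, abcf-2 (47.6), in both cases past the 3′ end. The share over all genes is 7.60%, which a count of 1 of 8 is near, and no difference from it was tested for these groups. Initiation genes had one in 6 of 37. These were gcn-1 (172.3, which lay 20523 bp inside that long gene), the eIF4E gene ife-3 (119.8), the eIF3 subunit gene eif-3.C (98.8), drr-2 (78.7), the poly(A)-binding protein gene pab-1 (68.7) and ifet-1 (62.9). The pab-1 summit was shared with rpl-30 and that of ifet-1 with rps-1, both ribosomal protein genes. The ife-3 summit was shared with B0348.10, that of eif-3.C with sys-1 and that of drr-2 with set-16.

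The genes most alike in their percentiles over the 2 replicate libraries are a description of level only. For eef-1A.1 they were Y54G11A.17, elof-1 and lin-7, which share a single summit of 122.9, each at a distance of 0.197 percentile points. For eef-1A.2 they were F42A10.9 (0.264), C47E8.4 (0.312) and Y75B12B.11 (0.366). For eef-2 they were str-170 (0.0539), vdac-1 (0.224) and T27E4.7 (0.266). The optimal summit lay 3316 bp after the 5′ end of str-170 and 1602 bp after that of T27E4.7. For iff-2 they were F42A10.9 (0.140), imb-3 (0.208) and idh-1 (0.311). The optimal summit of F42A10.9 is the one shared with efk-1 and nfm-1, and that of idh-1 lay 2112 bp after its 5′ end. For eef-1G they were fbxb-85 and hex-3 (0.436 each, 1 shared summit of 63.4) and dot-1.1 (0.645).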

How the data were processed

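AMA-1 ChIP-seq peak lists from 2 biological replicates of whole N2 L2 larvae (1 group) were used as deposited. Per the deposited file descriptions, the authors made each replicate list from its alignment and a control file, the pooled list from both alignments, and the optimal list by the irreproducible discovery rate from these. The aligner, the peak caller, their versions and the threshold were not given in the sources used here. Column 7 is the authors' signal value per peak, as deposited, and column 10 places the summit. Replicate and pooled lists hold 30000 peaks each, background included. The 1861 optimal peaks were the 1861 pooled peaks of highest signal. Read depth is unknown.

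Summits on ce11 were placed against WBcel235 (Ensembl release 115). No ce11 peak used passed a chromosome end. The ce10 lists were not used for positions. Windows reached 500 bp beyond both gene ends. A percentile is the share of genes with a lower highest signal. Where a replicate stood alone as a call, its 1861 strongest peaks were taken. The 3 genes nearest to each occupied member in both replicates' percentiles, the translation list and the motifs were set by rule. Members and lists were chosen with earlier results of these data known. No test was made. Window placement was tested on simulated data. Alternatives were flanks of 250 bp, 1000 bp and none, each replicate alone, peak overlap, nearest gene, the 930 strongest optimal peaks, the whole pooled list, 5′ ends only, and genes of 0.5 to 2 times the span. Coding sequences and promoters came from RefSeq WBcel235 and were aligned with Biopython 1.88. Python 3.11.15, NumPy 2.4.6, SciPy 1.17.1 and Matplotlib 3.10.9 were used.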

Additional observations from a re-analysis of the deposited data

How the results depend on the processing

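The count of 5 of 6 genes stayed at 4 or 5 under every alternative tried except within gene spans alone, where it was 2, since the summits of eef-1A.1, eef-1A.2 and iff-2 are upstream. There the share of all genes was 3.23%, the other translation genes numbered 1, and the percentile was 91.9 for eef-1A.1, 79.7 for eef-1A.2 and 99.2 for eef-2. With flanks of 250 bp the eef-1A.1 peak was lost, its highest signal was 29.8 (percentile 86.3), that of eef-1A.2 was 67.4, and 6 other translation genes were counted. With the nearest gene only, eef-1A.1 stood at the percentile 87.3 and 4 other translation genes were counted. The 930 strongest optimal peaks gave 4.12% of genes and 6 translation genes, 5′ ends alone 4.80% and 6, and the whole pooled list 44.2% and 41. With 1 replicate at a time the translation count ranged from 4 (replicate 2) to 12, and the percentiles from 95.1 to 99.2 (eef-1A.1), 95.8 to 99.3 (eef-1A.2), 97.3 to 98.2 (eef-2) and 95.5 to 99.1 (iff-2). eef-1G has no value among the strongest peaks of replicate 2, iff-2 none within its span, and iff-1 none. Causes other than the summit positions were not tested. No paired analysis was possible because the labels give 1 group. Read depth and the scale of the signal are unknown, so a missing peak does not show that polymerase is absent.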

Other observations

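Of the 6 genes, 5 have a divergent protein-coding neighbour within 1000 bp upstream, against 17.7% of all protein-coding genes and 29.3% of the 1517 genes with an optimal summit. The gaps are 179 bp to ctf-4 (eef-1G), 264 bp to clsp-1 (eef-2), 278 bp to cdk-1 (iff-1), 540 bp to rfc-4 (eef-1A.1) and 934 bp to F54C9.14 (iff-2). ctf-4, clsp-1, cdk-1 and rfc-4 are named for homologs that act in DNA replication or cell division, while F54C9.14 has no such name. How often divergent neighbours of other genes have such names was not counted. The neighbours and their names were noticed after the peaks were read and were not tested. With 6 genes they are a description of these loci only.

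The distance from summit to 5′ end at the eEF1A genes was set beside other genes after their sequences were seen. Of 2447 protein-coding genes whose annotated 5′ end directly follows TTTCAG, 234 had an optimal summit within 500 bp, with a median position of -196 bp, and in 113 (48.3%) the highest summit lay beyond -200 bp. Of the other 17526 genes, 725 had one, with a median of -88 bp and 224 (30.9%) beyond -200 bp. No test was made of this difference. eef-1A.1 (-357 bp) and eef-1A.2 (-441 bp) belong to the first set, and eef-1G, eef-2 and iff-2, with summits from -22 to 29 bp, to the second. Only the outermost annotated 5′ end of each gene was used. The eEF1A genes have 1 annotated 5′ end each. From the innermost annotated 5′ ends of eef-1G, eef-2 and iff-2 the same summits were at -251, -422 and -425 bp. The contrast among these genes thus depends on the 5′ end taken.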
